A study of Homo sapiens with 58 samples.

Results

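Gene expression late in a time course of human presomitic mesoderm, at 450, 480 and 510 min, was set against the same course at 300, 330 and 360 min. Both windows came from H1, an unmodified line of human embryonic stem cells, which had been led towards presomitic mesoderm, the tissue at the tail end of the embryo that is divided into somites. Each of the 6 time points had 2 libraries, so the comparison used 12 of the 58 libraries of the series, 6 in each window, chosen by their labelled times alone. The whole course had 46 libraries, 2 at each of 23 time points spaced by 30 min, and a separate daily series had 12. From the daily series, 3 Day3 libraries of somite cells were set against 3 Day2 libraries of presomitic mesoderm. Day3 cells were in 1 µM PD0325901 (a MEK inhibitor), 2.5 µM IWR1 (a Wnt inhibitor), 2 µM A83-01 (an inhibitor of activin and nodal receptors) and 100 ng/mL NOGGIN (a BMP antagonist). Day2 cells were in 3 µM CHIR99021 (a Wnt activator), 100 ng/mL FGF2, 2 µM A83-01 and 100 ng/mL NOGGIN. The labels give neither the medium of the course nor the event its minutes are counted from. All libraries came from 1 cell line, and the labels do not say that replicates were separate cultures, so each p-value covers the spread among these libraries alone, and that spread may be technical.

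In the vertebrate embryo, presomitic cells carry a segmentation clock, in which HES7 and other Notch targets switch on and off in turn. FGF and Wnt signals hold the cells in the presomitic state. As these signals decline, TBX6 and Notch activity switch on MESP2 in mouse, a basic helix-loop-helix factor that marks where the next segment border will form. MESP2 in turn acts on RIPPLY factors, which end TBX6 activity, and on Eph receptors and ephrins, cell-surface proteins that part the cells on both sides of a border. Cells that have passed the border take on a somite programme with TCF15 and MEOX1.

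Levels are given in CPM, counts per 1 M counts of the library after TMM scaling, and fold changes as log2 values with their standard error (SE). Total expected counts were 3.99 to 6.07 M per library at 450-510 min and 3.01 to 5.72 M at 300-360 min. A gene without counts may still have had up to 3, or 0.494 to 0.995 CPM in these libraries before TMM scaling, for counting error alone. A letter after the time names the library, a for replicate 1 and b for replicate 2. The libraries 450b and 510a stood apart from the other 10. They had 12890 and 12957 genes detected, against 13482 to 13959 in the others, and correlated with the other 11 at a mean r of 0.918 and 0.923, against 0.942 to 0.948. Both belong to the later window, so counts are also given without them. MESP2 was at 11 CPM or more in all 12 libraries. Of the presomitic markers, MSGN1 averaged 4.06 ± 1.58 CPM at 450-510 min and 6.12 ± 1.64 CPM at 300-360 min (SD, n = 6 each), and T averaged 6.87 ± 2.53 CPM at 450-510 min and 8.03 ± 1.77 CPM at 300-360 min. Both were present in both windows, and the genes of the presomitic list summed to 708 to 889 CPM at 450-510 min and 875 to 967 CPM at 300-360 min.

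The question was which genes changed between these windows. MESP2 was already at 5.50 to 18.6 CPM and RIPPLY2 at 11.2 to 33.4 CPM at 210-270 min, so both were on earlier. Of 13653 genes tested with edgeR's quasi-likelihood test, 442 (3.24%) passed an adjusted p of 0.05. Of these, 233 (1.71%) were higher at 450-510 min than at 300-360 min and 209 (1.53%) were lower. In all, 100 genes (0.732%) were called with a fold of 2 or more, 49 higher and 51 lower. The median log2 fold change of all genes was -0.01. All 6 later libraries lay above all 6 earlier ones for 79 genes (0.579%), and all 6 lay below for 99 (0.725%). The count of calls moved with single libraries. It was 1062 without 450a and 830 without 510b. It was 203 to 291 without any 1 of 300a, 330b, 360a, 360b, 450b, 480a or 510a, and 171 without both 450b and 510a. Of those 171, 145 were among the 442. On the deposited TPM values the split of calls turned to 85 higher and 321 lower, with a median shift of all genes of -0.11 on the log2(TPM + 1) scale.

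**Figure D1:**
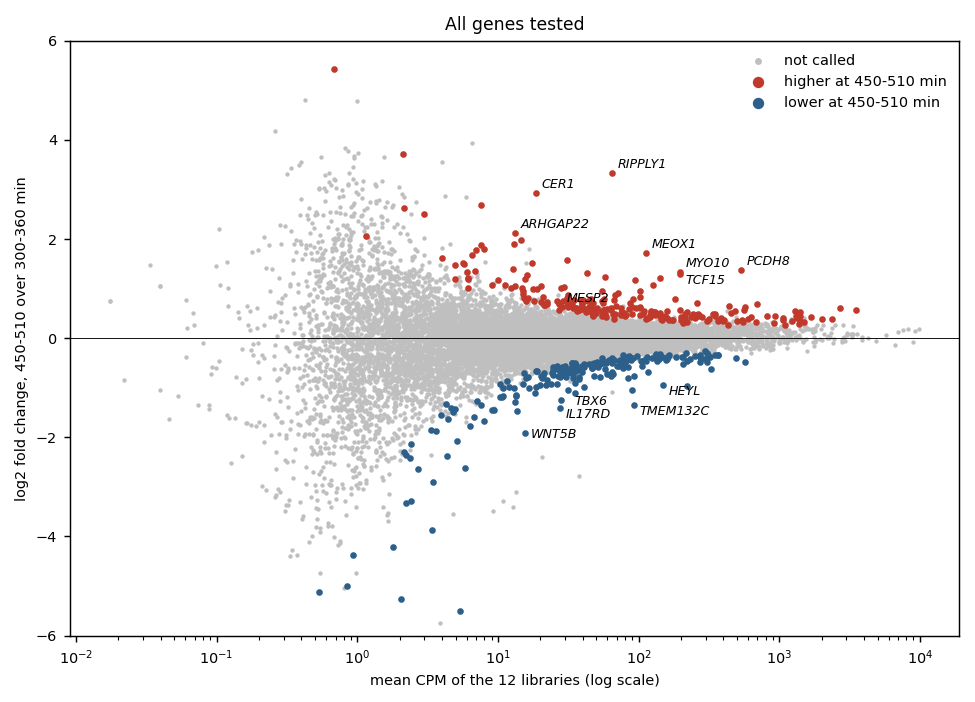
Each point is a gene, with its mean CPM over the 12 libraries on a log axis and its log2 fold change between the windows; red and blue mark the 233 and 209 called genes. Of 13653 genes, 1 lies beyond the axis and 5 were at 0 in all 12 libraries and are not drawn.

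MESP2 rose at 450-510 min. Its 6 libraries ranged from 19.7 CPM through a median of 37.4 to 54.9 CPM at 450-510 min, against 11, 18.8 and 25.6 CPM at 300-360 min. The groups overlapped through 1 later library, 480a, which held the 19.7 CPM. The log2 fold change was 1.02 ± 0.22 (SE), with an adjusted p of 0.00457, and 1.11 without 450b and 510a (adjusted p 0.0075). An exact 2-sided permutation test over the 6 and 6 libraries gave p = 0.00866, where the smallest it allows is 0.00216. That test treats libraries of different times as replicates, which the main fit does not. Neighbouring times of a course may not be independent, so its p-value only describes these libraries. The call was lost on log2(TPM + 1) (log2 fold change 0.87, adjusted p 0.051), on log2(TPM + 0.1) (0.90, adjusted p 0.189) and at the middle times, 480 against 330 min, with 2 libraries each (0.99, adjusted p 0.679). MESP1, its close relative, was low in both windows, at 3.44 ± 2.71 CPM at 450-510 min and 1.33 ± 0.87 CPM at 300-360 min, and was not called (log2 fold change 1.30 ± 0.90).

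RIPPLY1 had the largest rise of the border genes called. RIPPLY1 and RIPPLY2 are co-repressors that in mouse end TBX6 activity and so fix the border. RIPPLY1 ranged from 73.0 through 106 to 173 CPM at 450-510 min, against 2.78, 10.9 and 32.8 CPM at 300-360 min. Every later library was above every earlier one, and the log2 fold change was 3.34 ± 0.16 (adjusted p 5.94e-21). RIPPLY2 was detected in every library of both windows. It ranged from 118 through 129 to 155 CPM at 450-510 min, against 48.8, 64.6 and 117 CPM at 300-360 min. These groups also did not overlap, although 360b at 117 CPM came close to the lowest later library, and the log2 fold change was 0.96 ± 0.13 (adjusted p 7.29e-07). Per length of transcript, RIPPLY1 stood at 0.335 to 0.805 of the RIPPLY2 level in TPM at 450-510 min (median 0.423), against 0.0297 to 0.220 at 300-360 min (median 0.102). At 630-690 min this ratio had passed 1 in all 6 libraries and ranged from 2.21 to 3.30.

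The promoters of these 3 genes are shown because TBX6 and the Notch effector RBPJ act on MESP2 and RIPPLY genes in mouse. They run from 250 bases before to 50 after the RefSeq start (build GRCh38.p14), on the gene's strand, with matches in capitals. TGGGAA (the RBPJ core) and AGGTGT (a T-box core) were searched on both strands; they do not overlap each other here. The MESP2 window is chr15:89776082-89776381 on the plus strand. It held AGGTGT on the minus strand, written ACACCT, at 150 and 79 bases before the start, and TGGGAA on the minus strand, written TTCCCA, at 127 bases before it. The RIPPLY1 window is chrX:106903292-106903591 on the minus strand and held TGGGAA at 15 bases after the start. The RIPPLY2 window is chr6:83853110-83853409 on the plus strand, at the more upstream of 2 starts in the table, and held neither.
MESP2: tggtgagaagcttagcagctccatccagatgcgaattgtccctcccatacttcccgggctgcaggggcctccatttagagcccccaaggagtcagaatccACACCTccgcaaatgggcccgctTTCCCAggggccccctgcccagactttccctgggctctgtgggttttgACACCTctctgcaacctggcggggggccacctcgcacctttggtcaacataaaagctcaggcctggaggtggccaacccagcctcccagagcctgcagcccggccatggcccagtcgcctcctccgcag
RIPPLY1: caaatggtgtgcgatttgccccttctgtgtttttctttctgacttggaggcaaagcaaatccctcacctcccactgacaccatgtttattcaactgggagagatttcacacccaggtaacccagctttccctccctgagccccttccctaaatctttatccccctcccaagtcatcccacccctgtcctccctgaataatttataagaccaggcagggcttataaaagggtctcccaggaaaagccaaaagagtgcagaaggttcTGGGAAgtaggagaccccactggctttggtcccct
RIPPLY2: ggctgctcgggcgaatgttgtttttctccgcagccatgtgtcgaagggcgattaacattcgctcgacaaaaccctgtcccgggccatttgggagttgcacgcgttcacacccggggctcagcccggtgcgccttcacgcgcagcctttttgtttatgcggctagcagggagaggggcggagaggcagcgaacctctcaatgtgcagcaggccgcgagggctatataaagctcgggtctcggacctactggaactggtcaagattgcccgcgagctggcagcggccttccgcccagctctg
These matches are short and common. TGGGAA occurred in 24.0% of 35116 promoter windows and AGGTGT in 11.4%. Among called genes with a window, TGGGAA occurred in 25.4% of 169 higher and 19.6% of 163 lower, against 21.7% of 10065 tested genes. AGGTGT occurred in 4.1% of the higher and 7.4% of the lower, against 8.7% of the tested.

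The segment border list had 18 genes, of which 17 were in the table (RIPPLY3 was not analysed here) and 16 passed the low-count filter, all but TBX18. Of these 16, 7 were called higher (MESP2, RIPPLY1, RIPPLY2, EFNB2, PCDH8, CER1 and PAPPA), 3 were called lower (LFNG, DLL1 and SNAI1) and 6 were not called, beside 1.71% higher and 1.53% lower of all genes. The list's median log2 fold change was 0.61, against -0.01 for all genes. This list and the others were chosen with earlier results of these data known. An excess over all genes may therefore be partly built in, and it was not tested. The same counts, 7 higher and 3 lower, were found without 450b and 510a, with a median of 0.47. On log2(TPM + 1) 5 were called higher and 3 lower. TBX18, a border gene of the anterior somite side, and UNCX, of the posterior side, were at 0 in all 12 libraries; UNCX passed the filter through other time points and counts among the 6.

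EFNB2, an ephrin ligand for the Eph receptors at somite borders, ranged from 138 through 170 to 210 CPM at 450-510 min, against 56.9, 81.9 and 105 CPM at 300-360 min. No library overlapped, and the log2 fold change was 1.08 ± 0.11 (adjusted p 1.53e-09). Its receptor EPHA4 averaged 60.2 ± 7.2 CPM at 450-510 min, against 51.8 ± 2.8 CPM at 300-360 min, and did not pass the test (adjusted p 0.253). PCDH8, a protocadherin of the anterior presomitic mesoderm, ranged from 471 through 624 to 1261 CPM at 450-510 min, against 153, 273 and 489 CPM at 300-360 min. Its highest earlier library, 360b, lay just above its lowest later one, 450b, and the log2 fold change was 1.38 ± 0.12 (adjusted p 3.86e-12). CER1, a secreted antagonist of nodal and BMP, ranged from 10.4 through 33.6 to 58.0 CPM at 450-510 min, against 0.875, 3.54 and 11.4 CPM at 300-360 min, a log2 fold change of 2.93 ± 0.26 (adjusted p 7.28e-11). Here too 1 earlier library, 360a, lay just above the lowest later one, 450b. PAPPA, a protease that cleaves IGF binding proteins, averaged 24.9 ± 6.1 CPM at 450-510 min, against 12.8 ± 3.4 CPM at 300-360 min (log2 fold change 1.00 ± 0.24, adjusted p 0.0093). SNAI1, a repressor of epithelial genes, averaged 5.38 ± 3.62 CPM at 450-510 min, against 13.4 ± 3.1 CPM at 300-360 min (log2 fold change -1.45 ± 0.32, adjusted p 0.00482). CDH2, SNAI2 and FGFR4 were not called, with log2 fold changes of -0.21, 0.27 and -0.54.

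**Figure D2:**
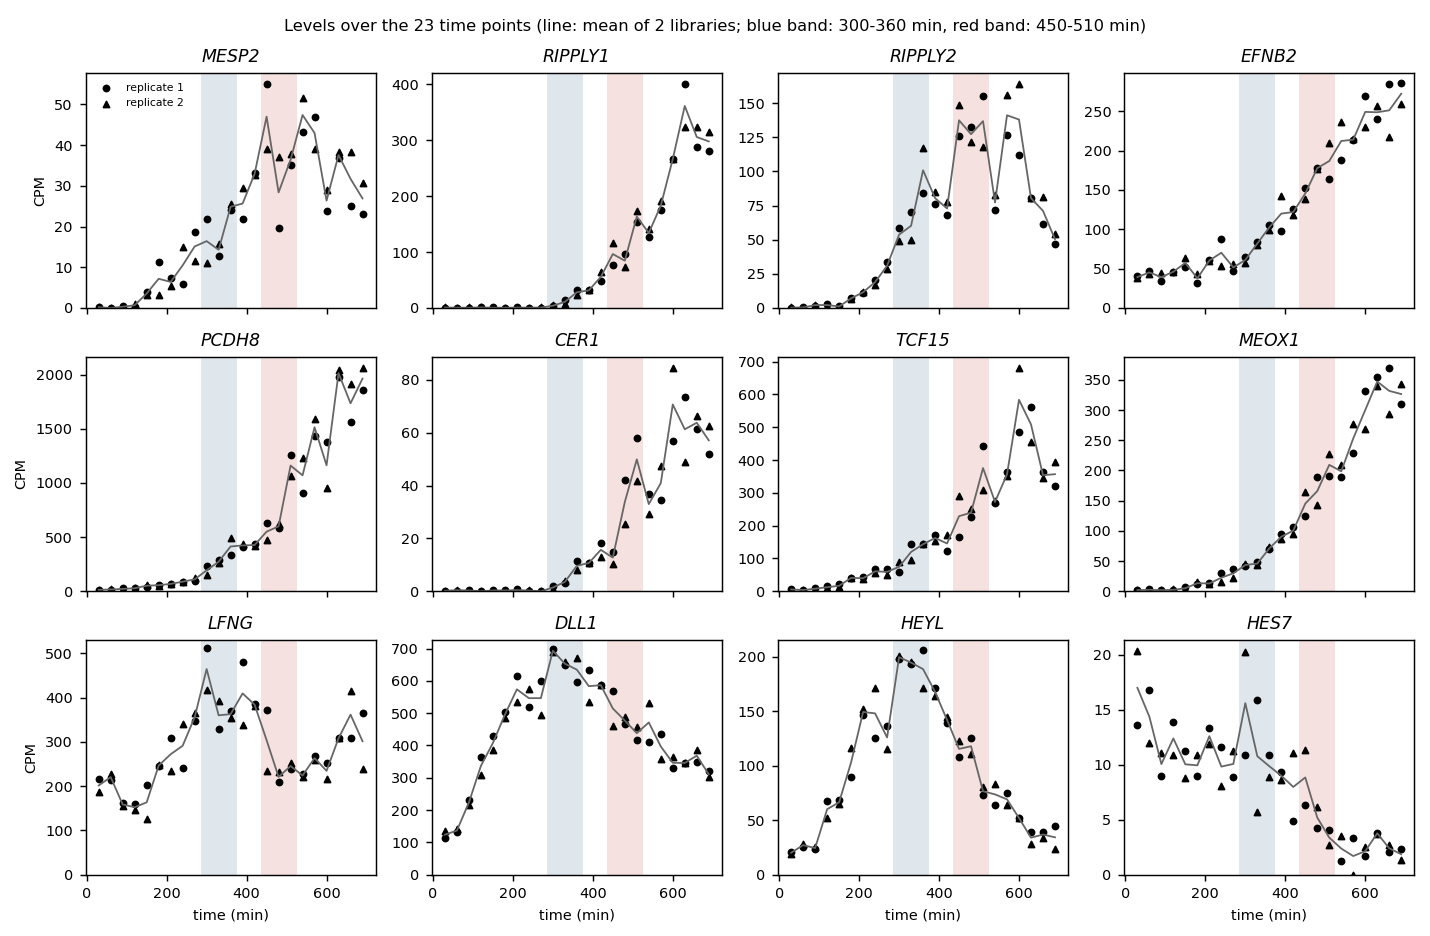
CPM of 12 genes in each of the 46 course libraries by time in minutes, with replicate 1 as circles, replicate 2 as triangles and a line through the mean of both; blue shading marks 300-360 min and red shading 450-510 min. RIPPLY1 and CER1 leave the base line within the blue band, whereas HEYL and DLL1 are highest there and lower in the red band.

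Notch pathway genes did not move together. Of 30 tested, 1 was called higher (DTX4) and 4 lower (LFNG, DLL1, HEYL and HES6), beside 1.71% higher and 1.53% lower of all genes. The other 25 were not called, and the list's median log2 fold change was -0.03. LFNG, a glycosyltransferase that modifies Notch receptors and cycles with the clock in mouse, ranged from 210 through 237 to 373 CPM at 450-510 min, against 328, 381 and 511 CPM at 300-360 min. Only 450a, at 373 CPM, reached into the earlier range, and the log2 fold change was -0.63 ± 0.12 (adjusted p 0.000428). DLL1, a Notch ligand, ranged from 418 through 463 to 570 CPM at 450-510 min, against 598, 665 and 698 CPM at 300-360 min, with no overlap (log2 fold change -0.47 ± 0.08, adjusted p 0.000171). HEYL, a repressor switched on by Notch, ranged from 72.7 through 109 to 125 CPM at 450-510 min, against 171, 197 and 206 CPM at 300-360 min, with no overlap (log2 fold change -0.94 ± 0.11, adjusted p 9.21e-08). HES6, which opposes HES repressors, averaged 5.28 ± 3.67 CPM at 450-510 min, against 12.7 ± 4.2 CPM at 300-360 min (adjusted p 0.0122; 0.0594 and 0.0656 without 450b or 360a). DTX4, an E3 ligase of the pathway, averaged 34.9 ± 8.4 CPM at 450-510 min, against 22.5 ± 3.6 CPM at 300-360 min (adjusted p 0.02). The DTX4 call was lost without any 1 of 300a, 330b, 360a, 450b, 480b or 510a, at adjusted p 0.0529 to 0.225. HES6 and DTX4 are named because they were called, after their values were seen.

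HES7, the clock repressor, ranged from 2.70 through 5.19 to 11.4 CPM at 450-510 min, against 5.66, 10.9 and 20.3 CPM at 300-360 min. The groups overlapped and the gene was not called, with a log2 fold change of -1.15 ± 0.35 (adjusted p 0.0569). It was called with DESeq2 (adjusted p 0.0183), with no filter on low counts (0.0235), on log2(TPM + 1) (0.0383) and without 330b (0.0396), and not under the other 19 alternatives. DLL3, a Notch ligand that acts inside the cell, averaged 355 ± 53 CPM at 450-510 min and 353 ± 26 CPM at 300-360 min, and NRARP, a feedback inhibitor of Notch, averaged 65.1 ± 16.7 and 73.1 ± 14.3 CPM at 450-510 and 300-360 min. Neither was called, with log2 fold changes of 0.00 ± 0.09 and -0.18 ± 0.12.

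Several somite genes rose. Of 17 list members tested, 7 were called higher, 2 lower and 8 not, beside 1.71% higher and 1.53% lower of all genes. Those called higher included TCF15, MEOX1, PAX3, FOXD1, EYA1 and TWIST1, and those called lower were ALDH1A2 and CDH11. The list's median log2 fold change was 0.39. Without 450b and 510a, 6 were called higher and 0 lower in edgeR, with 2 lower at an unadjusted p under 0.05. MEOX1, a homeobox gene of the early somite, ranged from 125 through 177 to 227 CPM at 450-510 min, against 41.2, 46.9 and 72.5 CPM at 300-360 min. All later libraries were above all earlier ones (log2 fold change 1.72 ± 0.13, adjusted p 5.34e-13). TCF15, a bHLH factor needed for somites to become epithelial in mouse, ranged from 166 through 272 to 442 CPM at 450-510 min, against 59.6, 119 and 144 CPM at 300-360 min, again with no overlap (log2 fold change 1.33 ± 0.14, adjusted p 2.06e-09). EYA1, a transcriptional co-activator, averaged 21.7 ± 6.6 CPM at 450-510 min, against 9.29 ± 3.44 CPM at 300-360 min (adjusted p 0.00186).

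PAX3, FOXD1, TWIST1, ALDH1A2 and CDH11 depended on single libraries for their calls, and they and EYA1 are named because they were called, after their values were seen. PAX3, a paired-box factor, averaged 8.22 ± 2.54 CPM at 450-510 min and 4.11 ± 1.74 CPM at 300-360 min (adjusted p 0.031). Its call was lost without any 1 of 300a, 330a, 360a, 360b, 450b, 480a or 510b, at adjusted p 0.0517 to 0.129. FOXD1, a forkhead factor, averaged 1.83 ± 0.95 CPM at 450-510 min and 0.480 ± 0.313 CPM at 300-360 min (adjusted p 0.0458), the earlier mean lying under what 3 counts are worth in each library. Its call was lost without any 1 of 300a, 300b, 330b, 360a, 360b, 450b, 480a or 510b (0.0714 to 0.420). TWIST1, a bHLH factor of mesenchyme, averaged 19.9 ± 7.1 CPM at 450-510 min and 10.1 ± 3.6 CPM at 300-360 min (adjusted p 0.0218; 0.0537 to 0.111 without any 1 of 300b, 330a, 360a, 450b, 480b or 510b). The falls of ALDH1A2, which makes retinoic acid, and of CDH11, a mesenchymal cadherin, were small at log2 -0.45 ± 0.12 and -0.36 ± 0.10. ALDH1A2 lost its call without any of the libraries other than 450a and 510b (0.0535 to 0.169), and CDH11 without any other than 330a, 450a and 480a (0.0507 to 0.195).

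**Figure D3:**
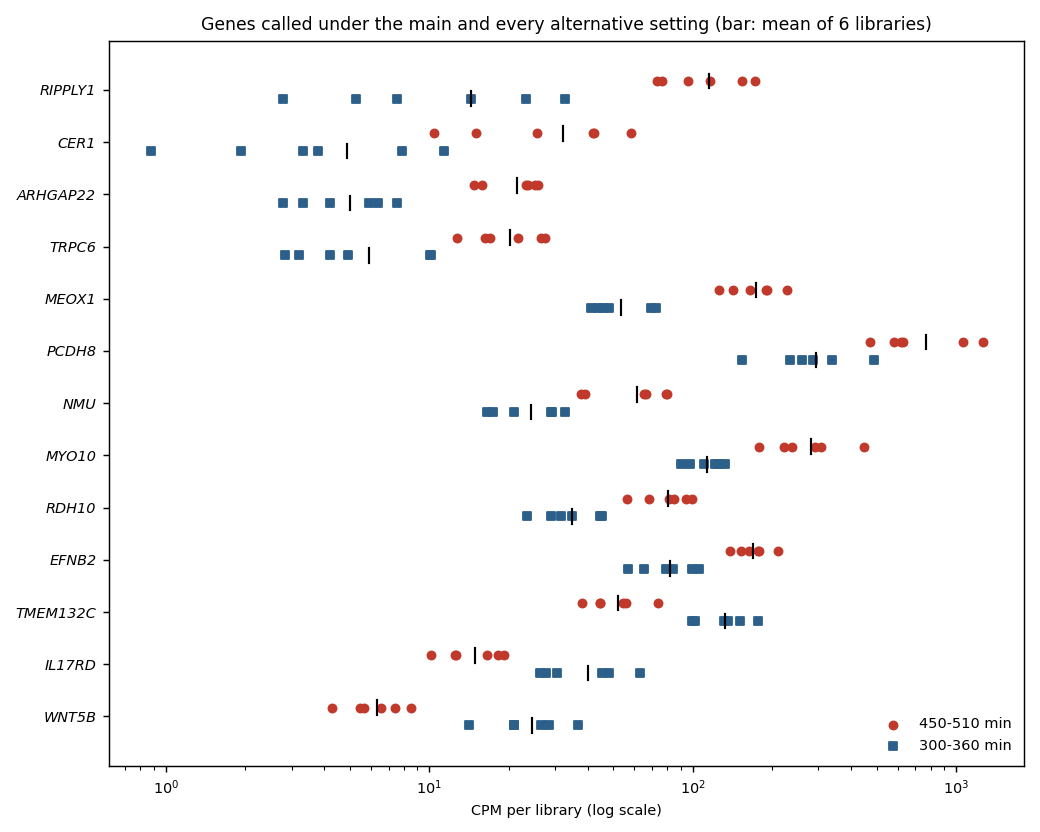
CPM on a log axis in each library for the 13 named genes that kept their call under each of the 23 other settings; red circles are the 6 libraries of 450-510 min, blue squares the 6 of 300-360 min, and black bars the means. The 2 ranges are apart for every gene shown other than PCDH8 and CER1, where 1 library of each window reaches into the other range. Genes named as largest rises or falls had to have ranges apart, so for them this was set by the rule.

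Presomitic genes fell or were not called. Of 21 tested, edgeR called 0 higher and 5 lower, beside 1.71% higher and 1.53% lower of all genes. The 5 were TBX6, CDX1, CDX2, WNT5B and FGF4, and the list's median log2 fold change was -0.41. At an unadjusted p under 0.05, 3 were higher, and DESeq2 called 0 higher. Without 450b and 510a, 4 were called lower and the median was -0.26. WNT5B, a Wnt ligand of the tail bud, ranged from 4.26 through 6.12 to 8.50 CPM at 450-510 min, against 14.1, 23.7 and 36.7 CPM at 300-360 min. No library overlapped, and the log2 fold change was -1.91 ± 0.21 (adjusted p 1.38e-08). FGF4, an FGF ligand of the presomitic mesoderm, averaged 22.6 ± 8.0 CPM at 450-510 min, against 48.5 ± 7.6 CPM at 300-360 min, with no overlap (log2 fold change -1.11 ± 0.19, adjusted p 0.000135). CDX1, a caudal factor that regulates HOX genes, averaged 24.2 ± 5.4 CPM at 450-510 min, against 46.2 ± 8.5 CPM at 300-360 min, with no overlap (log2 fold change -0.91 ± 0.16, adjusted p 0.000143). CDX2 was low in both windows, at 2.06 ± 1.81 CPM at 450-510 min and 5.80 ± 3.01 CPM at 300-360 min (adjusted p 0.0124; 0.212 without 360a and 0.0624 without 480a).

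TBX6, the presomitic T-box factor, averaged 22.1 ± 13.9 CPM at 450-510 min and 41.2 ± 9.9 CPM at 300-360 min. It ranged from 0.862 through 22.4 to 38.8 CPM in the later window, against 22, 43.6 and 48.9 CPM in the earlier one. The log2 fold change was -1.05 ± 0.29 (adjusted p 0.0324). The call was lost without any 1 of 300a, 300b, 330a, 330b, 360a, 450b, 480a or 510a, at adjusted p 0.05 to 0.176, and without both 450b and 510a (0.15). MSGN1, a bHLH factor of the presomitic mesoderm, had a log2 fold change of -0.65 ± 0.34 and was not called.

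Wnt target genes gave 0 higher and 5 lower of 24 tested in edgeR, beside 1.71% higher and 1.53% lower of all genes. The list's median log2 fold change was -0.30. At an unadjusted p under 0.05, 2 were higher, and DESeq2 called 0 higher. Besides CDX1 and CDX2 these were APCDD1, AXIN2 and CCND1. APCDD1, a membrane inhibitor of Wnt signals, averaged 18.0 ± 4.7 CPM at 450-510 min and 34.3 ± 5.8 CPM at 300-360 min, with no overlap (log2 fold change -0.93 ± 0.19, adjusted p 0.00236). AXIN2, a feedback inhibitor, averaged 73.9 ± 16.6 CPM at 450-510 min and 98.8 ± 6.8 CPM at 300-360 min (log2 fold change -0.43 ± 0.12, adjusted p 0.0377) and is named because it was called, after its values were seen. Its call was lost without any of the libraries other than 330a and 450a (0.0554 to 0.243). CCND1, cyclin D1, averaged 140 ± 17 CPM at 450-510 min and 182 ± 16 CPM at 300-360 min (log2 fold change -0.37 ± 0.10, adjusted p 0.02; 0.0569 to 0.106 without any 1 of 300a, 330b, 360a, 450b, 480a or 510a). Without both 450b and 510a, 3 Wnt targets were called lower and the list median was -0.07. LEF1 and T, also on the list, had log2 fold changes of -0.06 and -0.23 and were not called.

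Beside 1.71% higher and 1.53% lower of all genes, FGF-ERK targets had 1 called higher and 2 lower of 20 tested, with no shared direction. Their median was 0.14, and it was -0.01 on log2(TPM + 1), where all genes had a median of -0.11, and -0.10 without 450b and 510a. IL17RD, a membrane inhibitor of FGF signals, ranged from 10.1 through 14.6 to 19.2 CPM at 450-510 min, against 26.2, 37.9 and 62.8 CPM at 300-360 min. No library overlapped (log2 fold change -1.41 ± 0.14, adjusted p 4.06e-10). The other lower one was CCND1. PHLDA1, an immediate target of growth factors, averaged 43.7 ± 11.4 CPM at 450-510 min and 28.3 ± 3.8 CPM at 300-360 min (log2 fold change 0.61 ± 0.16, adjusted p 0.0239; 0.0528 to 0.0989 without any 1 of 300b, 330a, 330b, 360b, 450a, 480a or 510a). DUSP6 and SPRY2, feedback inhibitors of ERK, were at 8.32 ± 6.42 and 7.58 ± 4.90 CPM at 450-510 min, against 6.65 ± 3.59 and 5.02 ± 2.75 CPM at 300-360 min, and were not called.

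Immediate early genes gave 0 higher and 4 lower of 23 in edgeR, beside 1.71% higher and 1.53% lower of all genes. The list's median log2 fold change was -0.42. At an unadjusted p under 0.05, 3 were higher, and DESeq2 called 1 of them higher (KLF4). CTGF, a secreted matrix protein, averaged 86.0 ± 11 CPM at 450-510 min and 127 ± 8 CPM at 300-360 min with no overlap (log2 fold change -0.57 ± 0.11, adjusted p 0.000718). BTG2, an antiproliferative factor, averaged 27.5 ± 9.5 CPM at 450-510 min and 54.3 ± 7.3 CPM at 300-360 min (log2 fold change -0.98 ± 0.15, adjusted p 4.5e-05). ATF3, a stress-induced factor, averaged 45.2 ± 12.1 CPM at 450-510 min and 73.1 ± 10.0 CPM at 300-360 min (log2 fold change -0.72 ± 0.14, adjusted p 0.00087). The fourth, KLF6, a zinc finger factor named because it was called, after its values were seen, averaged 133 ± 27 CPM at 450-510 min and 179 ± 18 CPM at 300-360 min (adjusted p 0.00524). The same number, 4 lower, was found without 450b and 510a.

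**Figure D4:**
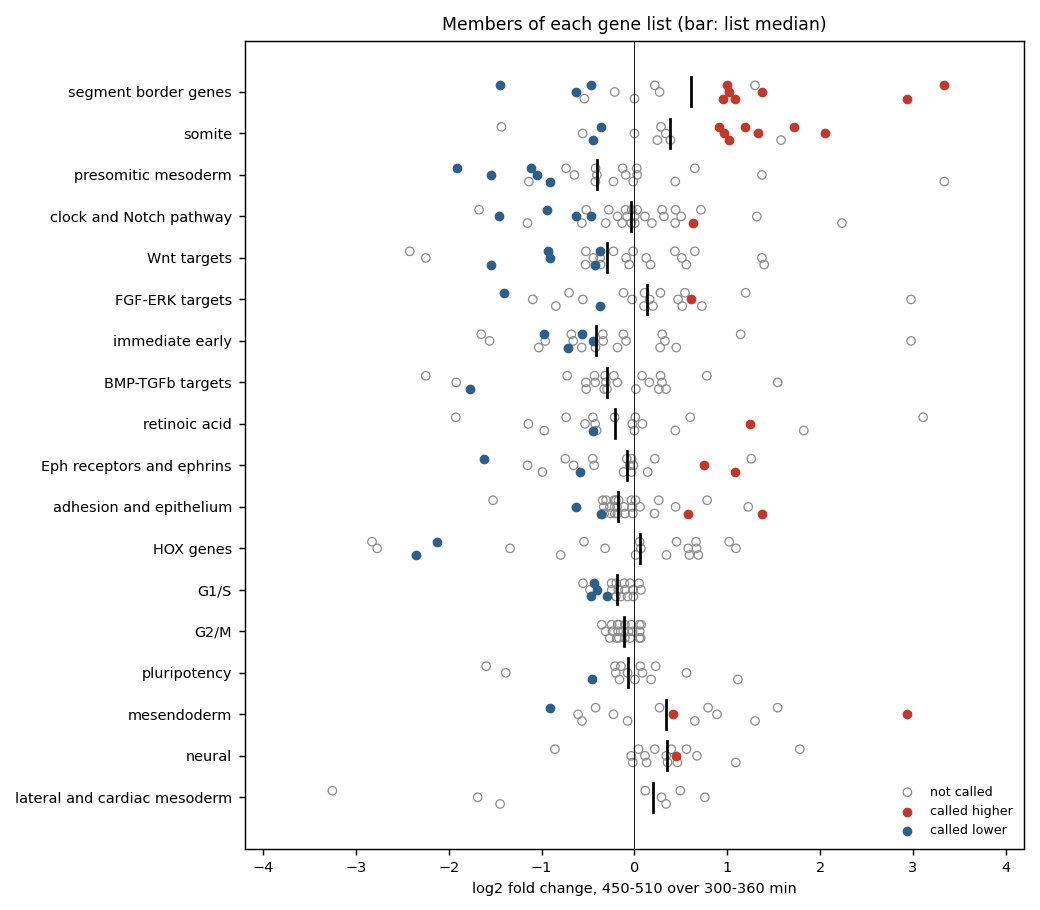
Log2 fold change of each tested member of 18 gene lists, with called genes filled (red higher, blue lower), others open, and a bar at each list's median. The segment border and somite lists have their medians at 0.61 and 0.39, against -0.01 for all genes, and the presomitic and immediate early lists at -0.41 and -0.42.

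By size, the largest rises among called genes with 5 CPM or more in the higher window and no overlap included several genes outside the border programme. Of the 442 called genes, 126 met this rule, 55 higher and 71 lower. ARHGAP22, a regulator of the GTPase Rac, averaged 21.4 ± 4.8 CPM at 450-510 min and 5.02 ± 1.87 CPM at 300-360 min (log2 fold change 2.12 ± 0.27, adjusted p 2.57e-07). TRPC6, a cation channel, averaged 20.3 ± 5.9 CPM at 450-510 min and 5.89 ± 3.35 CPM at 300-360 min (log2 fold change 1.90 ± 0.28). PRODH, which breaks down proline, averaged 11.8 ± 1.9 CPM at 450-510 min and 3.35 ± 1.48 CPM at 300-360 min (log2 fold change 1.89 ± 0.36). Next came CLSTN2 (a calsyntenin) and COL21A1 (a collagen), with log2 fold changes of 1.79 ± 0.39 and 1.52 ± 0.26. NMU, the precursor of the neuropeptide neuromedin U, ranged from 37.6 through 65.7 to 80.2 CPM at 450-510 min, against 16.5, 24.9 and 32.8 CPM at 300-360 min (log2 fold change 1.31 ± 0.15, adjusted p 1.38e-08). MYO10, a myosin of filopodia, ranged from 178 through 264 to 448 CPM at 450-510 min, against 90.3, 116 and 133 CPM at 300-360 min (log2 fold change 1.29 ± 0.11, adjusted p 2.79e-12). RDH10, which makes the first step from retinol to retinoic acid, ranged from 56.3 through 83.1 to 99.5 CPM at 450-510 min, against 23.4, 33.1 and 45.0 CPM at 300-360 min (log2 fold change 1.24 ± 0.13, adjusted p 2.06e-09). C2orf55 had a log2 fold change of 1.27 ± 0.21. These 9 genes kept their call without any single library and without both 450b and 510a.

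The largest falls by the same rule, which took only genes without overlap, included WNT5B, IL17RD and TMEM132C. TMEM132C ranged from 37.9 through 49.5 to 73.8 CPM at 450-510 min, against 99.1, 133 and 177 CPM at 300-360 min (log2 fold change -1.35 ± 0.11, adjusted p 1.26e-12). CLDN11, a claudin of tight junctions, averaged 7.32 ± 3.79 CPM at 450-510 min and 20.03 ± 5.48 CPM at 300-360 min (log2 fold change -1.48 ± 0.20, adjusted p 2.72e-06). AFAP1L1, an actin-associated protein, averaged 2.17 ± 1.69 CPM at 450-510 min and 9.42 ± 3.01 CPM at 300-360 min (log2 fold change -2.61 ± 0.44, adjusted p 0.00011). KCNJ8, a potassium channel, averaged 8.34 ± 2.62 CPM at 450-510 min and 18.4 ± 3.3 CPM at 300-360 min (log2 fold change -1.17 ± 0.27, adjusted p 0.00827; 0.0538 without both 450b and 510a). The other 6, FNTB, SLCO2A1, TAC1, SYNJ2, ERBB3 and ZNF90, averaged 0.929 to 6.34 CPM at 450-510 min, against 5.88 to 15.03 CPM at 300-360 min. Each of the 6 lost its call without 450b, at adjusted p 0.0842 to 0.153, and without some other libraries too, in the range of 0.0509 to 0.174. FNTB shares sequence with a readthrough transcript, so its counts are uncertain.

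Adhesion genes were called in both directions, and the calls other than PCDH8 depended on single libraries. Of 30 tested, PCDH8 and PCDH19 were called higher and PCDH10 and CDH11 lower, beside 1.71% higher and 1.53% lower of all genes. The list's median log2 fold change was -0.18. PCDH19 averaged 71.8 ± 11.9 CPM at 450-510 min and 48.2 ± 7.5 CPM at 300-360 min (adjusted p 0.0114; 0.0505 without 480b). PCDH10 averaged 46.3 ± 17.4 CPM at 450-510 min and 69.9 ± 5.2 CPM at 300-360 min (adjusted p 0.0174; 0.0629 to 0.125 without any 1 of 360b, 450b, 480a or 510a). Both lower calls were lost without any 1 of 360b, 450b or 510a. Without both 450b and 510a the list had 2 higher and 0 lower, with 4 lower at an unadjusted p under 0.05. Beside the same shares of all genes, 2 of 19 Eph receptors and ephrins were called higher and 2 lower. Besides EFNB2 these were EPHA7, EFNB1 and EPHB6, and only EFNB2 kept its call without both 450b and 510a. Without those libraries the adjusted p was 0.753 for EPHA7, 0.259 for EFNB1 and 0.301 for EPHB6. EPHA7 is named because it was called, after its values were seen.

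Retinoic acid genes gave 1 higher (RDH10) and 1 lower (ALDH1A2) of 19, beside 1.71% higher and 1.53% lower of all genes. Among 20 HOX genes tested, 0 were called higher in edgeR and 2 lower, both at a few counts per library: HOXB1 at 0.696 ± 0.719 CPM at 450-510 min, against 3.71 ± 1.61 CPM at 300-360 min, and HOXB9 at 1.40 ± 1.73 CPM at 450-510 min, against 3.44 ± 2.21 CPM at 300-360 min. Without both 450b and 510a neither HOXB1 (adjusted p 0.0798) nor HOXB9 (adjusted p 0.136) was called. In all 12 libraries at an unadjusted p under 0.05, 4 HOX genes were higher, of which DESeq2 called 1 (HOXA5). HOXB1 lost its call without 360b (0.117) and HOXB9 without any 1 of 300a, 330b, 450b, 480b or 510a (0.0611 to 0.0864). Of 23 BMP and TGFβ targets 1 was called lower, ID1, at 2.76 ± 2.61 CPM at 450-510 min and 9.84 ± 3.31 CPM at 300-360 min (adjusted p 0.0401; 0.064 to 0.172 without any of the libraries other than 330b, 450a and 510b).

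Of the cell cycle genes, 4 of 20 G1/S genes were called lower and 0 of 22 G2/M genes either way in edgeR. The shares of all genes were 1.71% higher and 1.53% lower. At an unadjusted p under 0.05, 5 G2/M genes were lower and 0 higher, and DESeq2 called 2 lower (MKI67 and HMMR). UHRF1, which helps to copy DNA methylation, averaged 255 ± 34 CPM at 450-510 min and 355 ± 42 CPM at 300-360 min with no overlap (log2 fold change -0.47 ± 0.08, adjusted p 0.000108). UNG, a DNA repair enzyme, averaged 107 ± 15 CPM at 450-510 min and 142 ± 8 CPM at 300-360 min (adjusted p 0.00457; 0.109 without both 450b and 510a). CDC6 and RRM2, of DNA replication, had log2 fold changes of -0.44 ± 0.11 and -0.30 ± 0.08. CDC6 lost its call without 330b, 360b or 450b (0.0613 to 0.0711), and RRM2, named after its values were seen, without any 1 of 300a, 330b, 360b, 450b, 480a or 510a (0.0578 to 0.156). Without both 450b and 510a 1 G1/S gene was called lower, and on log2(TPM + 1) 9 were. G2/M genes had 0 calls without both libraries in edgeR (3 lower at an unadjusted p under 0.05) and 3 lower on log2(TPM + 1).

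Lists of metabolic and stress genes held 1 or 2 calls each, beside 1.53% lower of all genes. Glycolysis had 2 lower of 19 (SLC2A1 and PDK1), cholesterol synthesis 1 lower of 21 (MSMO1) and stress response 1 lower of 20 (ATF3). Without both 450b and 510a these counts were 0, 0 and 1 in edgeR, with 2, 2 and 5 lower at an unadjusted p under 0.05. PDK1 was also the only named call lost when the replicate number entered the fit as a block.

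Lists of other cell types held between 0 and 3 calls each, beside 1.71% higher and 1.53% lower of all genes. Of 15 pluripotency genes 1 was called lower (LIN28B, log2 fold change -0.46 ± 0.11, adjusted p 0.281 without both 450b and 510a), and the summed level of the list was 1505 to 1721 CPM at 450-510 min, against 1728 to 1958 CPM at 300-360 min. NANOG was at 0.708 ± 1.107 CPM at 450-510 min and 0.611 ± 0.501 CPM at 300-360 min. Of 14 mesendoderm genes, CER1 and APLNR were called higher and CDX1 lower, with sums of 1878 to 2293 CPM at 450-510 min and 1440 to 1687 CPM at 300-360 min. APLNR, the apelin receptor of early mesoderm, made up most of this sum at 1515 ± 160 CPM at 450-510 min and 1137 ± 78 CPM at 300-360 min (log2 fold change 0.41 ± 0.09, adjusted p 0.00283). Of 5 definitive endoderm genes tested CER1 alone was called, and the list summed to 226 to 321 CPM at 450-510 min and 197 to 239 CPM at 300-360 min. TTR and HNF4A were at 0 in all 12 libraries.

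Of 16 neural genes 1 was called higher, TUBB3 (a tubulin of neurons), at 306 ± 33 CPM at 450-510 min and 224 ± 18 CPM at 300-360 min (adjusted p 0.00199). The neural list summed to 2707 to 4472 CPM at 450-510 min, against 2618 to 3957 CPM at 300-360 min. OLIG2 was at 0 in all 12 libraries. Of 5 intermediate mesoderm genes SALL1 was called higher, with a log2 fold change of 0.34 ± 0.10 (adjusted p 0.0401, and 0.274 without both 450b and 510a), and the list summed to 337 to 698 CPM at 450-510 min and 310 to 404 CPM at 300-360 min. Lateral and cardiac mesoderm (8 tested) summed to 49.7 to 75.3 CPM at 450-510 min, against 43.6 to 59.9 CPM at 300-360 min. Endothelium and blood (7) summed to 37.4 to 56.2 CPM at 450-510 min, against 32.0 to 50.5 CPM at 300-360 min. Sclerotome and myotome (5) summed to 98.4 to 170 CPM at 450-510 min, against 88.7 to 136 CPM at 300-360 min, with MYF5, MYOD1 and MYOG at 0 in all 12 libraries. Trophoblast (3) summed to 0.237 to 9.22 CPM at 450-510 min, against 3.85 to 8.49 CPM at 300-360 min, with CGA and ELF5 at 0 in all 12 libraries. These 4 lists had 0 members called in edgeR or in DESeq2. Without both 450b and 510a, edgeR called 1 sclerotome gene higher, SOX9, with a log2 fold change of 0.56 (adjusted p 0.0247). At an unadjusted p under 0.05, 3 lateral and cardiac genes and 1 gene of each other list of the 4 passed, and their part in the changes of the border genes was not tested. In bulk libraries, a change in the share of cells of a type and a change in RNA per cell cannot be told apart.

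The steps before and after show how these genes ran on. Window centres lay at 240, 330, 480 and 660 min, so the steps differ in length. The step from 210-270 to 300-360 min, which shares the 300-360 min libraries, called 1579 genes (11.6%), and the step from 450-510 to 630-690 min, which shares the later ones, called 1126 (8.25%). MESP2 had log2 fold changes of 0.82 before, 1.02 in the step described and -0.20 after (adjusted p 0.646 for the last). RIPPLY1 had 3.92, 3.34 and 1.54, all called. The 3.92 starts from 0.314 to 0.991 CPM at 210-270 min, where few counts stand behind a value, so its size is uncertain. RIPPLY2 had 1.86, 0.96 and -1.02, all called, and its level at 630-690 min averaged 67.3 CPM. Its course was not a single rise and fall. The mean of both libraries was 100.8 CPM at 360 min, 72.82 CPM at 420 min and 137.4 CPM at 450 min. It was 77.22 CPM at 540 min and 141.1 CPM at 570 min. Both libraries at 420 and at 540 min lay within the range of 300-360 min, so the RIPPLY2 change depends on where the windows lie. MEOX1 had 1.34, 1.72 and 0.97, and TCF15 1.06, 1.33 and 0.55, all called. Mean levels were highest at 540 min for MESP2, 570 min for RIPPLY2, 600 min for CER1 and TCF15, and 630 min for RIPPLY1, PCDH8 and MEOX1, and at 300 min for LFNG and DLL1.

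The difference between the step described and the one before was itself tested. It passed for 539 genes (3.95%), and its window centres lay 150 and 90 min apart. Among named genes 14 passed. MYO10 moved by 1.29 in the step described and by 0.03 before (difference 1.26, adjusted p 0.000132). HEYL moved by -0.94 and 0.47 (difference -1.40, adjusted p 1.56e-05), and DLL1 by -0.47 and 0.25 (difference -0.72, adjusted p 0.00188). FGF4 moved by -1.11 and 0.52 (difference -1.63, adjusted p 0.00188). For MESP2 the difference was 0.20 and did not pass (adjusted p 0.882).

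The Day3 and Day2 libraries are not part of the course, but the labels do not say whether their cells were cultured separately from it. Between them 22.6% of 12765 genes were called, 11.6% higher at Day3 and 11% lower. Of the 229 genes that were higher at 450-510 min and tested in both, 101 (44.1% of them, and 6.89% of the genes higher at Day3) were also higher at Day3 than at Day2, against 11.7% of all genes tested in both. Of the 204 lower genes, 63 (30.9%, and 4.5% of the genes lower at Day3) were also lower at Day3, against 11.2% of all. In the opposite direction went 22 of the higher and 10 of the lower genes.

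MEOX1 was at 144 to 219 CPM at Day3 and at 0 to 0.353 CPM at Day2, and TCF15 at 271 to 374 CPM at Day3 and at 0 to 6.00 CPM at Day2. RIPPLY1 was at 25.4, 73.4 and 111 CPM at Day3 and at 0 in all 3 Day2 libraries. RDH10 averaged 123 CPM at Day3 and 34.5 CPM at Day2 (log2 fold change 1.85, adjusted p 0.00118). IL17RD and WNT5B were lower at Day3 by log2 fold changes of -4.79 and -6.40. EFNB2 and PCDH8 were not called between the days, at 98.9 and 32.5 CPM at Day3, against 102 and 34.0 CPM at Day2. DLL1 was higher at Day3 than at Day2 (log2 fold change 1.77, adjusted p 0.0394), whereas it was lower at 450-510 than at 300-360 min. Over the whole course its mean level was 124 CPM at 30 min, 694 CPM at 300 min and 311 CPM at 690 min. MESP2, RIPPLY2, HES7 and MESP1 did not pass the low-count filter of the daily series and were not tested there.

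**Figure D5:**
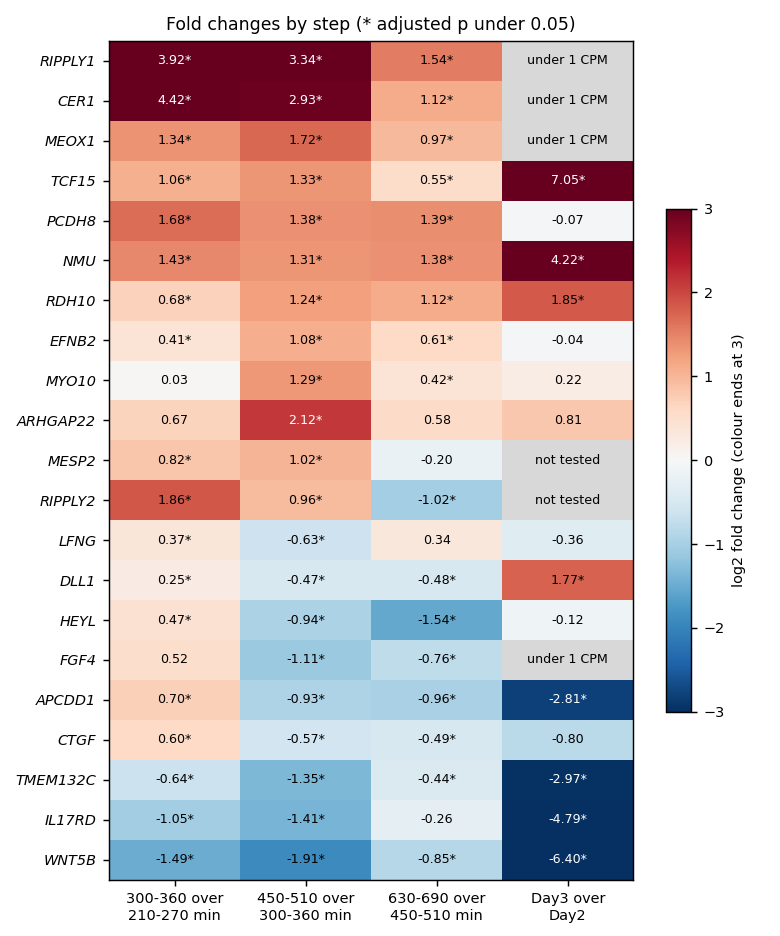
Log2 fold changes of 21 genes (colour and number) over 3 successive steps of the course and between Day3 and Day2, with a star at an adjusted p under 0.05; grey cells were not tested or had a mean under 1 CPM on 1 of the days. LFNG, DLL1, HEYL, FGF4, APCDD1 and CTGF are positive in the first column and negative in the second, and RIPPLY2 is positive in the first 2 columns and negative in the third.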

How the data were processed

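RNA-seq was run on total RNA of H1 cells, and the labels gave each library's group, time and replicate number. The authors deposited expected counts for 19084 genes, which need not be whole numbers, and TPM values in a second table. Reads were aligned with Bowtie 0.12.2, per the submitters' processing notes, which list the builds hg19 and mm8; the counting program, the annotation and the use made of mm8 were not given in the sources used here. Gene symbols are those of the tables.

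Expected counts were rounded and tested with edgeR 4.0.16 (TMM, filterByExpr by time point, quasi-likelihood F test) in R 4.3.3 over all 46 course libraries, with 1 coefficient per time point, contrasts of window means and Benjamini-Hochberg adjustment over 13653 genes; called means an adjusted p under 0.05. The 12 daily libraries were tested likewise (12765 genes). The counts carry gene length and are not comparable between genes, so levels of different genes are compared in TPM only. The main fit was also run on simulated counts with known changes in genes of 5 CPM or more. It recovered 82% of changes of log2 1 and 100% of changes of log2 2, and 2.15% of its calls were false. The simulated libraries were drawn independently and none stood apart as 450b and 510a did, so these shares need not hold in the real data. Replicate libraries of the 12 correlated at r 0.923 to 0.958, with a chi-square of at least 4.59 per degree of freedom and so no duplicates. Floors reflect counting error alone, since reads were not tagged per molecule as far as the labels say.

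Named genes were the border list and 9 clock, presomitic and somite genes, the 12 largest rises and the 12 largest falls (5 CPM in the higher window, libraries not overlapping), and up to 3 called members of each other list. The members, the 26 lists and these rules were chosen with earlier results of these data known. Alternatives were size factors of the DESeq2 type, DESeq2 1.42.0, other filters, the 12 libraries alone, a replicate block, limma 3.58.1 on log2(TPM + 1) and log2(TPM + 0.1), the middle times alone and each library left out; leaving out both 450b and 510a was added after seeing the data. The promoter windows came from RefSeq (GRCh38.p14), at the most upstream start of each gene; MEOX1 and TCF15 have no window in the table. Values of some list members are not reported here.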

Additional observations from a re-analysis of the deposited data

Results flagged for a closer look

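In 8 of 146 groups of 6 libraries checked among the named genes, 1 library lay far from the other 5; chance gives about 1 in 20 groups. At 450-510 min, LFNG was at 373 CPM in 450a against 210 to 252 CPM in the others, UNG at 136 CPM in 450a against 93.3 to 108 CPM, and ALDH1A2 at 124 CPM in 510a against 189 to 210 CPM. At 300-360 min, NRARP was at 101 CPM in 300a against 62.2 to 74.5 CPM, PRODH at 6.13 CPM in 330b against 2.10 to 3.53 CPM, and EFNB1 at 38.8 CPM in 300b against 48.3 to 52.5 CPM. In 360b, TBX6 was at 22 CPM against 41.0 to 48.9 CPM and HEYL at 171 CPM against 194 to 206 CPM.

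For 14 named genes the step to 450-510 min differed from the step before (edgeR, adjusted over all genes). Many named genes were chosen by the step described, which is part of this difference, so passing is favoured. Values are log2 differences, with the step described and the step before in turn. RIPPLY2 differed by -0.91 (0.96 and 1.86), EFNB2 by 0.67 (1.08 and 0.41), LFNG by -0.995 (-0.63 and 0.37), DLL1 by -0.72 (-0.47 and 0.25) and MYO10 by 1.26 (1.29 and 0.03). TMEM132C differed by -0.71 (-1.35 and -0.64), KCNJ8 by -2.14 (-1.17 and 0.97), HEYL by -1.40 (-0.94 and 0.47), FGF4 by -1.63 (-1.11 and 0.52) and CTGF by -1.17 (-0.57 and 0.60). ATF3 differed by -1.05 (-0.72 and 0.33), APCDD1 by -1.64 (-0.93 and 0.70), PCDH10 by -1.20 (-0.63 and 0.57) and UHRF1 by -0.75 (-0.47 and 0.28).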

How the results depend on the processing

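Of 63 named calls, 13 held under all 23 other settings and 31 under all but the middle times. The 442 calls (233 higher, 209 lower, 100 with a fold of 2 or more) became 690 (384 higher, 306 lower, 158) with no filter on low counts, 206 (122, 84, 65) in the 12 libraries by time point, 125 (76, 49, 41) with the windows as groups, 27 (20, 7, 22) at the middle times and 171 (110, 61, 52) without both 450b and 510a. On TPM values they split into 85 higher and 321 lower with a pseudocount of 1 and 71 higher with 0.1. Leaving out each library gave 203 to 1062 calls (121 to 461 higher, 82 to 601 lower, 59 to 253 with the fold). The step to 630-690 min gave 1126 calls, 652 to 1888 with each library left out and 607 without both; the difference of steps 539, 163 to 942 and 226; and Day3 against Day2 2890, and 1717 to 3238. The causes were not tested. MESP1 turned to -0.16 at the middle times and ranged from -0.61 (without 480b) to 2.86 with each library left out, and MSGN1 to 0.38 at the middle times. DLL3, near 0, turned to -0.11 on both TPM scales and to -0.003 to -0.063 without 300b, 330b, 360b, 450b, 480b or 510b (-0.005, -0.030, -0.023, -0.003, -0.045 and -0.063), and reached 0.058 without 510a. With the replicate block 432 genes were called. Same-numbered libraries did not deviate together (r -0.097 to 0.090 over 253 pairs of times). The labels do not say whether the numbers pair the libraries, and a low r cannot exclude it. Depth of 3.01 to 6.07 M counts limits genes under about 1 CPM.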
